A study of Mus musculus with 6 samples.

Results

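The CDK inhibitors and the D-type cyclins, which set the pace of the G1 phase, were examined in RNA sequencing of mouse Lin−CD117+ hematopoietic stem cells. The genes were found by symbol and comprised *Cdkn1a*, *Cdkn1b* and *Cdkn1c* (the CIP/KIP family), *Cdkn2a*, *Cdkn2b*, *Cdkn2c* and *Cdkn2d* (the INK4 family) and *Ccnd1*, *Ccnd2* and *Ccnd3* (the D-type cyclins), and all 10 were among the 18121 genes measured. GA cells had been given glycyrrhizic acid, a saponin found in licorice, over 24 h, whereas control (Ctrl) cells stayed in normal culture, and each group had 3 libraries. By the study's methods such cells were bone marrow of young adult female C57BL/6 mice from which lineage-positive cells were removed and cells with CD117, the product of *Kit*, were kept. No genetic change was named for either group. The GA concentration, and whether each library came from its own animals, are not given in the sources used here.

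D-type cyclins bind the kinases CDK4 and CDK6 in G1, and these phosphorylate the retinoblastoma protein, which frees E2F transcription factors to switch on genes of DNA replication. INK4 proteins bind CDK4 and CDK6 and block their pairing with cyclin D, whereas CIP/KIP proteins bind cyclin-CDK complexes more widely and can also help cyclin D to assemble with its kinase. In mouse blood stem cells p57, the product of *Cdkn1c*, is known for keeping cells quiescent, and *Cdkn1a* and *Cdkn2a* are widely used as markers of senescence.

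Sequence upstream of the start was matched by symbol in RefSeq (GRCm38.p6; mm10 names GRCm38) for 7 of the 10 genes, in 11 windows, and *Ccnd1*, *Ccnd2* and *Cdkn1c* were not matched. The 250 bases before 4 of the starts follow, those of *Cdkn1a* and *Cdkn2b*, which hold the rarer of the motifs searched, and 1 of the windows of *Ccnd3*, the gene with the highest level. The remaining windows, those of *Cdkn2a* and the upstream start of *Ccnd3* among them, are given only by their counts. Capitals mark matches on either strand to GGGCGG (the GC box of SP family factors), TGACGTCA (the cAMP response element) and CATGNNNNNNCATG (the cores of a pair of p53 half-sites).
Cdkn1a, upstream start (chr17:29090729-29090978, plus strand): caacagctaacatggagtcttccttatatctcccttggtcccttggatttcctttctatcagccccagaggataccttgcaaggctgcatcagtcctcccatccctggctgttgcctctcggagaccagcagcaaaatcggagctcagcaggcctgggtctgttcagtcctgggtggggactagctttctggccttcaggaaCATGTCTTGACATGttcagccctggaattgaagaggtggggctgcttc
Cdkn1a, downstream start (chr17:29093519-29093768, plus strand): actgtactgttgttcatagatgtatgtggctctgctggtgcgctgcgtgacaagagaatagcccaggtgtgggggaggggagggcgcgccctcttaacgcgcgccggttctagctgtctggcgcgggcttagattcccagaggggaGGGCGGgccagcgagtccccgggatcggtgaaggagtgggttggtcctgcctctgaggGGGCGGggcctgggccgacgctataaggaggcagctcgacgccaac
Cdkn2b (chr4:89311033-89311282, minus strand): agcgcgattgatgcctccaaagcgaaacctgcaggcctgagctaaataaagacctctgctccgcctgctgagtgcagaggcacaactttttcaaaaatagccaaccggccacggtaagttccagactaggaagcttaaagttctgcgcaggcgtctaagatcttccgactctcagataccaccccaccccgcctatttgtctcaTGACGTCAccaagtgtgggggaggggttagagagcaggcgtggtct
Ccnd3, downstream start (chr17:47593217-47593466, plus strand): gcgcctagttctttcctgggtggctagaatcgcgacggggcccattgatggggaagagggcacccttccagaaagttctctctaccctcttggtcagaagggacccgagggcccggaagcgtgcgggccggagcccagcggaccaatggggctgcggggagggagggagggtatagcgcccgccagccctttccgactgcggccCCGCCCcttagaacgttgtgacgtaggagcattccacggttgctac

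The p53 core pair lay in 1 of the 11 windows, that of the upstream *Cdkn1a* start, and in 0.49% of all 32851 windows of this length. The cAMP response element lay in 1 of the 11, that of *Cdkn2b*, and in 1.55% of all windows. The GC box lay in 7 of the 11 and in 32.7% of all windows. A match describes the letters only. The table gave a single value per gene, so transcripts from the alternative starts of *Cdkn1a*, *Ccnd3*, *Cdkn2a* and *Cdkn2c* could not be separated. The value of *Cdkn2a* joins p16INK4a and p19ARF, which that gene encodes from different starts.

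Expression was measured in FPKM (fragments scaled to transcript length in kilobases and to 1000000 mapped fragments), so that levels of different genes may be set side by side. Summed over all genes, a library held 515444 to 555449 FPKM in GA and 508672 to 511802 FPKM in Ctrl, and the depth is unknown. GA replicate 1 stood apart, because its deviation from the Ctrl mean ran against transcript length with a Spearman's rho of -0.59 across 10719 genes. GA replicates 2 and 3 had -0.31 and -0.18 and the Ctrl libraries -0.059 to 0.066 (genes are not independent replicates). Each Ctrl library is part of the Ctrl mean, so its rho is not a like measure. The rho was negative in every GA library, so removing the length trend may also remove a difference between the groups. Results that rest on GA replicate 1 are given with and without it. The defining marker *Kit* was at 16.04, 20.4 and 21.2 FPKM in GA and at 19.6, 17.1 and 17.8 FPKM in Ctrl, and 12 stem and multipotent progenitor markers summed to 299 to 309 FPKM in GA and 289.6 to 302 FPKM in Ctrl. The platelet chemokine *Pf4* took 2.29% to 3.15% of the summed FPKM in GA and 2.56% to 2.66% in Ctrl, so RNA of the megakaryocyte lineage was abundant too. *Cd79a* (B cells) and *Col1a1* (stroma) stayed at or below 0.84 FPKM in every library, but other markers of their lists were expressed. The 12 lymphoid markers in the table summed to 40.4 to 43.5 FPKM in GA and 34.4 to 41.55 FPKM in Ctrl. Only 5 of these averaged at least 1 FPKM, and 2 at least 5 FPKM. The 8 stroma and endothelium markers summed to 85.75 to 99.97 FPKM in GA and 97.8 to 103 FPKM in Ctrl. Of these 4 averaged at least 1 FPKM and 1 at least 5 FPKM, so the sum rests on few genes. Monocyte and macrophage RNA was abundant as well. Its 10 markers summed to 2417 to 2721 FPKM in GA and 2279 to 2595 FPKM in Ctrl.

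**Figure D1:**
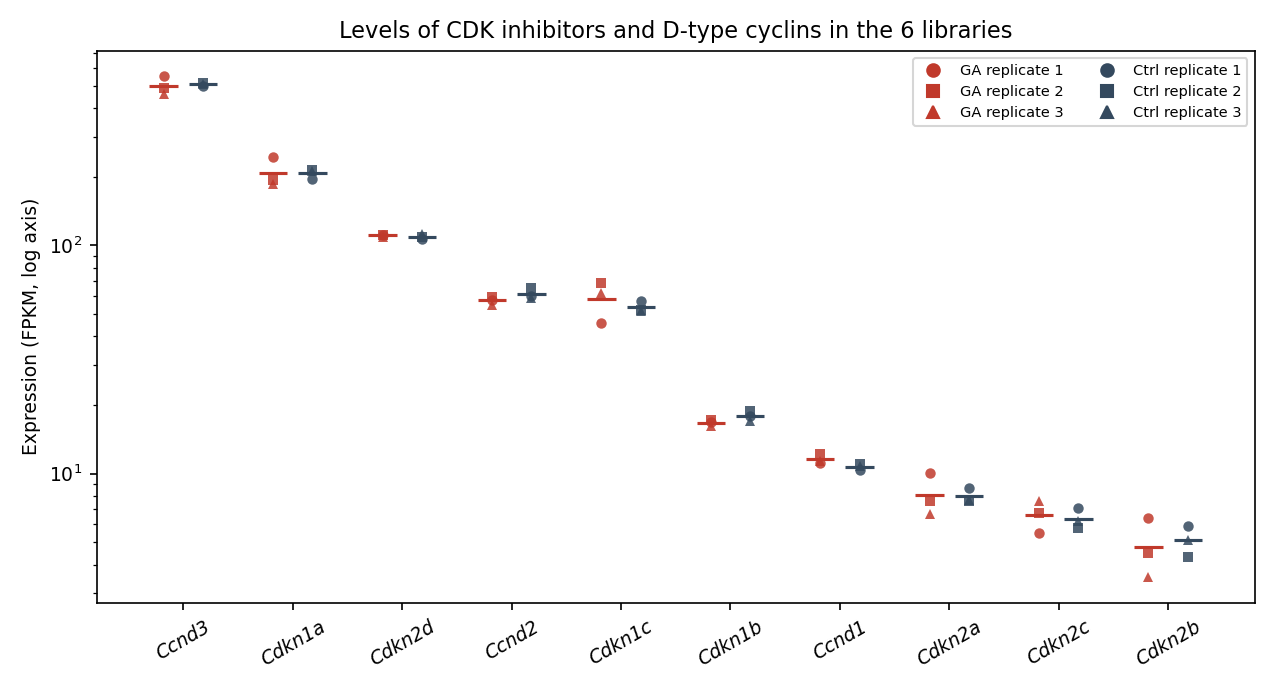
Expression of the 10 genes in FPKM on a log axis, ordered by the mean over the 6 libraries, with GA left of Ctrl. Points are libraries, shapes give the replicate and bars are group means; only *Ccnd1* had all GA libraries above all Ctrl libraries, which rescaling to 1000000 undid.

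The 10 genes covered a wide range of levels. *Ccnd3* was highest, at 459 to 554 FPKM over the 6 libraries, and its mean exceeded that of 99.1% of all genes. *Cdkn1a* followed at 186 to 243 FPKM and *Cdkn2d* at 107 to 112 FPKM. Next came *Ccnd2* (54.9 to 65.02 FPKM) and *Cdkn1c* (45.7 to 68.2 FPKM), whose ranges overlapped. *Cdkn1b* lay at 16.2 to 18.8 FPKM and *Ccnd1* at 10.4 to 12.1 FPKM. At the low end *Cdkn2a* (6.65 to 10.1 FPKM) overlapped with *Cdkn2c* (5.52 to 7.63 FPKM), and *Cdkn2c* with *Cdkn2b* (3.51 to 6.37 FPKM). The other neighbours in this order were separated in every library.

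Each family was led by 1 gene. *Ccnd3* made up 88.9%, 87.2% and 87.4% of the summed D-type cyclin FPKM in GA replicates 1, 2 and 3, and 87.6%, 87.2% and 87.98% in Ctrl replicates 1, 2 and 3. *Cdkn2d* made up 83.5% to 86% of the INK4 sum in GA and 83.2% to 85.97% in Ctrl, and *Cdkn1a* 69.5% to 79.6% of the CIP/KIP sum in GA and 72.2% to 75.6% in Ctrl. All these ranges overlapped between the groups.

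The comparison of GA with Ctrl asked whether the levels of these cell cycle brakes and drivers differed after 24 h of GA. None of the 10 genes passed the limma test at a Benjamini-Hochberg adjusted p under 0.05, and none had an unadjusted p under 0.05 on the deposited scale. Among all 10912 genes tested, which are those with a mean of at least 1 FPKM, 0% passed at the adjusted threshold and 13.5% had an unadjusted p under 0.05. By their means 5 of the 10 genes were higher and 5 lower in GA, with a median log2 fold change of -0.0015, whereas 54.8% of all genes were higher, with a median of 0.012. Rescaling each library to 1000000 lowered GA against Ctrl for genes at large, to 33.4% higher and a median of -0.043, and the split of the 10 genes was then 2 higher and 8 lower. The split was 3 higher and 7 lower with the transcript length trend removed from every library (53.4% of all genes higher), and 4 higher and 6 lower without GA replicate 1 (64.8% of all genes higher). Log2 fold changes are GA minus Ctrl on the log2(FPKM + 1) scale, with 95% intervals. In bulk RNA, fewer cells of a type and less RNA per cell cannot be told apart.

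Among the CIP/KIP genes, *Cdkn1a* (chr17:29090976-29100727, plus strand; GRCm38 throughout) encodes p21, the best known cell cycle inhibitor downstream of p53. Its level was 243, 194 and 186 FPKM in GA replicates 1, 2 and 3, against 195, 213 and 213 FPKM in Ctrl replicates 1, 2 and 3. GA replicate 1 was the highest of the 6 libraries and the other GA libraries were the lowest. The means were 208 ± 30.97 FPKM in GA and 207 ± 10.3 FPKM in Ctrl (SD, n = 3 each), and the log2 fold change was -0.0046 (-0.21 to 0.20; adjusted p = 0.99, limma). Without GA replicate 1 it was -0.12 (-0.23 to -0.020; adjusted p = 0.172), and over all alternatives the adjusted p ranged from 0.124 to 1.

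*Cdkn1c* (chr7:143458339-143461050, minus strand) encodes p57 and was at 45.7, 68.2 and 61.8 FPKM in GA and at 57.2, 51.98 and 51.6 FPKM in Ctrl. It was lowest in GA replicate 1 and highest in the other GA libraries, the reverse of *Cdkn1a*. The means were 58.6 ± 11.6 FPKM in GA and 53.6 ± 3.12 FPKM in Ctrl (SD, n = 3 each), and the log2 fold change was 0.11 (-0.16 to 0.38; adjusted p = 0.768, limma). Without GA replicate 1 it was 0.27 (0.14 to 0.40), short of the threshold at an adjusted p of 0.0547, the lowest of its alternatives, which reached up to 0.983. With the length trend removed as well it was 0.23 (adjusted p = 0.116). In the GENCODE annotation 625 of its exonic bases (30.7%) lie opposite an antisense gene, *Gm44732*. Without a stated strand setting the reads of such a pair cannot be told apart.

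*Cdkn1b* (chr6:134920401-134925513, plus strand) encodes p27, an inhibitor of CDK2 complexes that is degraded before S phase. It was at 16.8, 17.1 and 16.2 FPKM in GA and at 17.9, 18.8 and 16.96 FPKM in Ctrl. Only GA replicate 2 reached into the Ctrl range, where it lay above Ctrl replicate 3. The log2 fold change was -0.091 (-0.21 to 0.032; adjusted p = 0.517, limma) and was negative under each of the 16 alternatives. The summed CIP/KIP level was 306, 279 and 264 FPKM in GA and 270.3, 284 and 281 FPKM in Ctrl, and the groups overlapped.

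Of the INK4 genes, *Cdkn2a* (chr4:89274471-89294653, minus strand) and *Cdkn2b* (chr4:89306299-89311039, minus strand) are neighbours. *Cdkn2a* was at 10.1, 7.58 and 6.65 FPKM in GA and at 8.67, 7.63 and 7.67 FPKM in Ctrl. *Cdkn2b*, which encodes p15, an inhibitor known for its induction by TGF-beta, was at 6.37, 4.5 and 3.51 FPKM in GA and at 5.91, 4.33 and 5.1 FPKM in Ctrl. Both were highest in GA replicate 1 and lowest in GA replicate 3. The log2 fold change of *Cdkn2a* was 0.0016 (-0.27 to 0.27; adjusted p = 0.997, limma), and -0.15 without GA replicate 1 (adjusted p = 0.292). With the length trend removed it was -0.10, so its sign was not stable. That of *Cdkn2b* was -0.099 with the widest interval of the 10 genes (-0.46 to 0.26; adjusted p = 0.854, limma), and -0.29 without GA replicate 1 (-0.55 to -0.024; adjusted p = 0.202).

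*Cdkn2c* (chr4:109660876-109667189, minus strand), which encodes p18, was at 5.52, 6.7 and 7.63 FPKM in GA and at 7.05, 5.79 and 6.2 FPKM in Ctrl. It was lowest in GA replicate 1 and highest in GA replicate 3. Its log2 fold change was 0.046 (-0.19 to 0.28; adjusted p = 0.9, limma). *Cdkn2d* (chr9:21288410-21291407, minus strand) encodes p19INK4d and was the steadiest of the 10 genes, at 111, 112 and 109 FPKM in GA and at 107, 109 and 112 FPKM in Ctrl. Its highest value was 1.05 times its lowest, and the log2 fold change was 0.020 with the narrowest interval of the 10 (-0.071 to 0.11; adjusted p = 0.884, limma). After rescaling to 1000000, which shifted the median of all genes to -0.043, *Cdkn2c* was at -0.0051 and *Cdkn2d* at -0.038. The summed INK4 level was 133, 130.3 and 127 FPKM in GA and 129, 127 and 131 FPKM in Ctrl, and the groups overlapped.

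Among the D-type cyclins, *Ccnd3* (chr17:47505051-47599691, plus strand) is known for its part in the expansion of blood cell precursors. It was at 554, 488 and 459 FPKM in GA and at 501, 517 and 511 FPKM in Ctrl. As for *Cdkn1a*, GA replicate 1 was the highest library and the other GA libraries were the lowest. The means were 500.4 ± 48.4 FPKM in GA and 509 ± 8.04 FPKM in Ctrl (SD, n = 3 each), and the log2 fold change was -0.030 (-0.18 to 0.12; adjusted p = 0.899, limma), or -0.10 without GA replicate 1 (-0.19 to -0.020; adjusted p = 0.161). *Ccnd2* (chr6:127125162-127152193, minus strand), a cyclin induced by mitogens and cytokines, was at 57.7, 59.6 and 54.9 FPKM in GA and at 60.3, 65.02 and 58.95 FPKM in Ctrl. GA replicate 2 alone reached into the Ctrl range. The log2 fold change was -0.096 (-0.21 to 0.021; adjusted p = 0.463, limma), negative under each of the 16 alternatives. After rescaling to 1000000 it was -0.15 (-0.29 to -0.024) with an unadjusted p of 0.0242, the 1 gene of the 10 under 0.05 there, against 7.88% of all genes lower and 2.70% higher, and it did not pass after adjustment (adjusted p = 0.398, limma).

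*Ccnd1* (chr7:144929931-144939925, minus strand), the D-type cyclin best known from epithelial tumours, was the 1 gene of the 10 whose groups did not overlap on the deposited scale. It was at 11.2, 12.1 and 11.4 FPKM in GA and at 10.4, 10.98 and 10.9 FPKM in Ctrl. All GA libraries lay above all Ctrl libraries, with means of 11.6 ± 0.506 FPKM in GA and 10.7 ± 0.323 FPKM in Ctrl (SD, n = 3 each). The log2 fold change was 0.098 (-0.030 to 0.23; adjusted p = 0.495, limma). By exact permutation of the libraries p was 0.1 (two-sided), and no lower p is possible with 3 libraries in each group. Under the 16 alternatives the fold change was 0.046 to 0.12. Of all genes tested 11.6% had every GA library above every Ctrl library and 8.29% every GA library below, so 1 gene of 10 is close to that background. The separation of *Ccnd1* was lost after rescaling to 1000000, where *Cdkn1b* and *Ccnd2* instead had every GA library below every Ctrl library, 2 of the 10 genes against 15.1% of all genes. Of the exonic bases of *Ccnd1*, 1100 (23.4%) lie opposite *LTO1*, which was listed at 6.07, 6.63 and 6.47 FPKM in GA and 5.52, 6.67 and 5.92 FPKM in Ctrl. The summed D-type cyclin level was 622, 560.1 and 525 FPKM in GA and 571, 593 and 581 FPKM in Ctrl, and the groups overlapped.

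**Figure D2:**
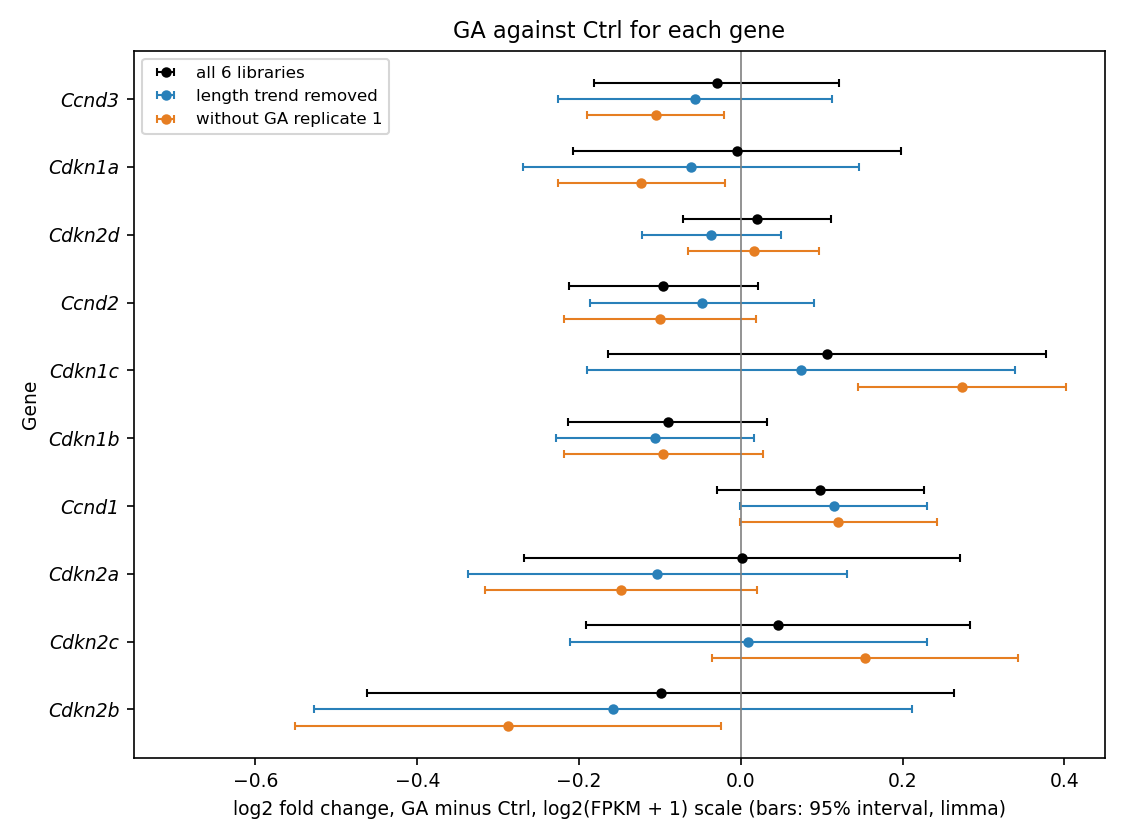
Log2 fold change of each gene, GA minus Ctrl, on the log2(FPKM + 1) scale, with 95% intervals from limma, for all 6 libraries, with the transcript length trend removed, and without GA replicate 1. With all libraries every interval included 0, and without GA replicate 1 those of *Ccnd3*, *Cdkn1a*, *Cdkn1c* and *Cdkn2b* did not, though no gene passed after adjustment over all genes.

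Several of these genes varied more among the GA libraries than between the groups. The median SD of log2(FPKM + 1) over the 10 genes was 0.17 within GA and 0.073 within Ctrl, and over all genes tested 0.089 within GA and 0.052 within Ctrl. The SD was larger in GA for 7 of the 10 genes, close to the 72.2% among all genes. *Ccnd3*, *Cdkn1a*, *Cdkn2a* and *Cdkn2b* shared 1 order, with GA replicate 1 above all other libraries and at least 1 other GA library below all Ctrl libraries. This order, noticed in the values and not tested, was found in 4 of the 10 genes and in 5.73% of all genes tested. The reverse order was found in *Cdkn1c* and *Cdkn2c*, 2 of the 10 genes, and in 21.1% of all genes.

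Some summed marker levels had the same order of libraries, but not every marker in them did. The summed level of 16 megakaryocyte and platelet markers, all in the table and none at 0 in all libraries, was 28357, 23122 and 20921 FPKM in GA and 23145, 23775 and 23851 FPKM in Ctrl. GA replicate 1 was thus highest there too, and the other GA libraries lowest. *Pf4* alone gave 17513, 13453 and 11829 FPKM of it in GA and 13012, 13389.5 and 13592 FPKM in Ctrl. Counted gene by gene, 13 of the 16 markers were lower in GA, and the median over all 16 was -0.11 (log2). At an unadjusted p under 0.05 (limma) 8 markers were lower, against 505 of all 10912 genes, and 0 passed the threshold. Every GA library lay below every Ctrl library for 7 markers, against 8.29% of all genes, so these markers did not have the order of the sum. Without GA replicate 1 all 16 were lower and 4 passed, where 60 of all 10912 genes were lower and passed. The sum of 11 erythroid markers, none at 0 in all libraries and 7 above the limit for testing, was 1482, 1280.1 and 1012 FPKM in GA and 1182, 1219 and 1184 FPKM in Ctrl. It was again highest in GA replicate 1 and lowest in GA replicate 3, but GA replicate 2 also lay above every Ctrl library. The part of these cell types in the values of the 4 genes was not tested. With the length trend removed, GA replicate 1 lay above the Ctrl mean by 0.17 for *Cdkn1a*, 0.22 for *Cdkn2b*, 0.12 for *Ccnd3* and 0.14 for *Cdkn2a* on the log2 scale, where the deposited values gave 0.23, 0.28, 0.12 and 0.30 for the same genes. For *Cdkn1c* its deviation was -0.24 with the trend removed and -0.23 as deposited. The directions were thus as they had been for these genes, with the greatest difference in size for *Cdkn2a*, whose median transcript length of 874 nucleotides is the shortest of the 10. For *Ccnd2* the deviation of GA replicate 1 turned from -0.088 to 0.039 with the trend removed, and for *Cdkn2d* from 0.0295 to -0.028.

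**Figure D3:**
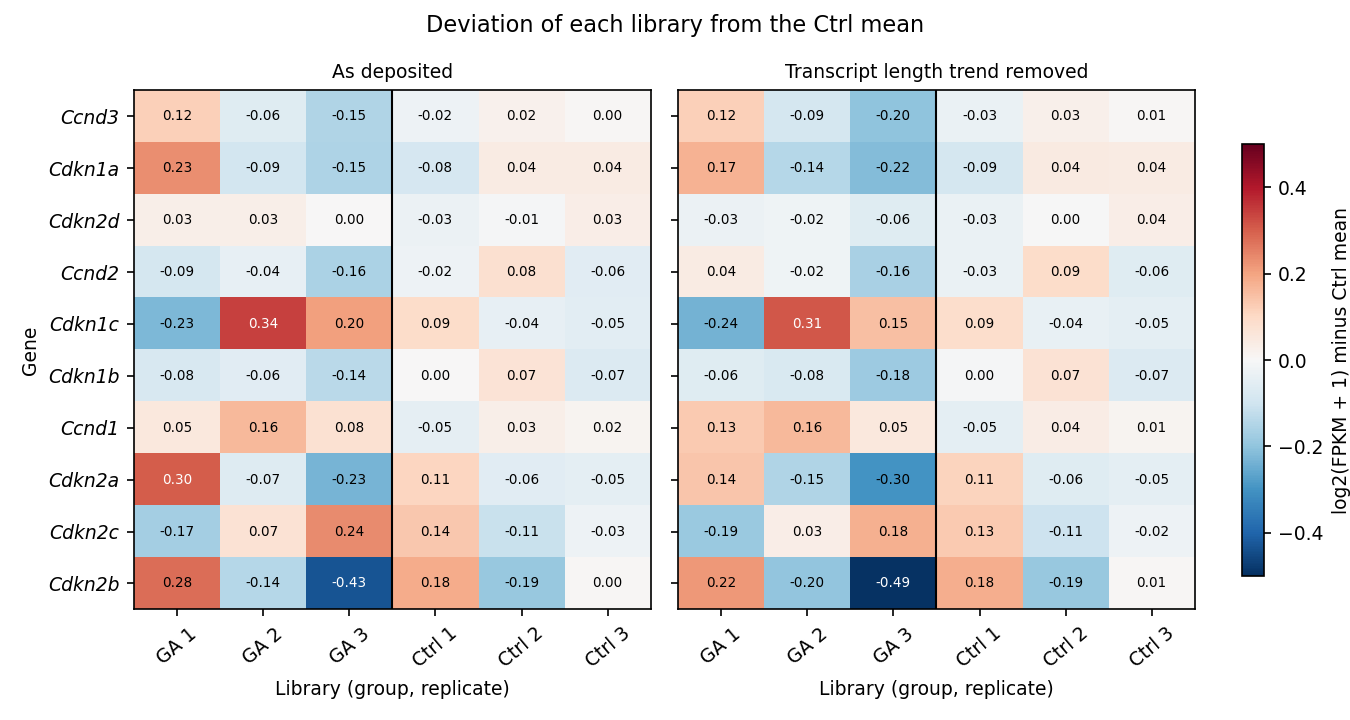
Deviation of each library from the Ctrl mean on the log2(FPKM + 1) scale, as deposited and with the transcript length trend removed, with GA libraries left of Ctrl libraries. GA replicates 1 and 3 had opposite signs for *Ccnd3*, *Cdkn1a*, *Cdkn2a*, *Cdkn2b*, *Cdkn2c* and *Cdkn1c* in both panels.

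Without GA replicate 1, *Cdkn1c* was higher and *Cdkn1a*, *Cdkn2b* and *Ccnd3* were lower in GA at an unadjusted p under 0.05, so 1 and 3 of the 10 genes, against 15.0% and 6.05% of all genes tested. After adjustment 0 of the 10 passed (limma), against 1.04% of all genes. With these 5 libraries GA lay above Ctrl without overlap for *Cdkn1c* and *Ccnd1*, against a background of 26.7%, and below it for *Cdkn1a*, *Cdkn2a* and *Ccnd3*, against 12.2%. With the length trend also removed, *Cdkn1a*, *Cdkn1b*, *Cdkn2a*, *Cdkn2b* and *Ccnd3* were lower at an unadjusted p under 0.05, 5 of the 10 genes against 8.79% of all genes, and 1 was higher (*Cdkn1c*), against 7.61%. The same 5 genes lay below Ctrl without overlap, against 16.3% of all genes, and *Cdkn1c* and *Ccnd1* above, against 18.2%. None of the 10 passed after adjustment. *Ccnd3*, *Cdkn1a*, *Cdkn2a* and *Cdkn2b* had their highest value in GA replicate 1, and *Cdkn1c* its lowest. Leaving that library out therefore lowers or raises their GA means by construction. The counts here restate that order in part and are not separate support for a difference.

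The partners of the D-type cyclins were compared next. *Cdk4*, a main kinase partner, was at 184, 171 and 186 FPKM in GA and at 159.8, 154 and 158 FPKM in Ctrl. The GA libraries all exceeded the Ctrl libraries, with a log2 fold change of 0.20 (0.091 to 0.30) that did not pass over all genes (adjusted p = 0.192, limma). *Rb1*, which encodes the retinoblastoma protein, was at 41.1, 41.9 and 39.7 FPKM in GA and at 44.3, 45.7 and 46.2 FPKM in Ctrl, without overlap and lower in GA (log2 fold change -0.15, adjusted p = 0.245, limma). *Cdk6*, the close relative of *Cdk4*, averaged 14.4 ± 1.15 FPKM in GA and 14.7 ± 0.351 FPKM in Ctrl (SD, n = 3 each) and overlapped, as did *Cdk2*, *Ccne1* and *Ccne2* (the kinase and cyclins E of late G1) and *Rbl1* and *Rbl2* (relatives of *Rb1*). *E2f1*, an activating E2F, averaged 19.3 ± 0.712 FPKM in GA and 18.1 ± 0.332 FPKM in Ctrl, with GA above Ctrl throughout on the deposited scale. After rescaling to 1000000 the groups of *E2f1* overlapped. *E2f3* averaged 7.23 ± 0.821 FPKM in GA and 8.38 ± 0.303 FPKM in Ctrl and *Tfdp2*, an E2F partner, 6.44 ± 0.396 FPKM in GA and 7.03 ± 0.0551 FPKM in Ctrl (SD, n = 3 each), both with GA below Ctrl throughout. Of the 22 genes of this list 14 were higher and 8 lower in GA, with a median of 0.033 and 0 past the threshold. After rescaling to 1000000, where 33.4% of all genes were higher, 8 were higher and 14 lower. On the deposited scale 2 of the 22 had GA above Ctrl without overlap and 3 below, against 11.6% and 8.29% of all genes. *E2f3* and *Tfdp2* were named for their small p (limma).

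Genes that E2F switches on for replication were higher in GA by their means throughout the list. All 18 listed genes were higher, by a median of 0.12 on the log2 scale, and 11 of them had every GA library above every Ctrl library, a pattern found in 11.6% of all genes. None passed over all genes (limma), and 8 had an unadjusted p under 0.05, where the background of higher genes was 8.88%. *Pcna*, the sliding clamp of DNA polymerases, was at 178, 176 and 182 FPKM in GA and at 151, 152 and 156 FPKM in Ctrl (log2 fold change 0.22, 0.13 to 0.31; adjusted p = 0.152, limma). *Rrm2* (a subunit of ribonucleotide reductase) averaged 40.8 ± 2.84 FPKM in GA and 35.8 ± 0.866 FPKM in Ctrl, *Tk1* (thymidine kinase) 31.3 ± 1.49 FPKM in GA and 28.2 ± 0.166 FPKM in Ctrl, and *Mcm2* (replicative helicase) 48.9 ± 2.34 FPKM in GA and 45.6 ± 0.849 FPKM in Ctrl (SD, n = 3 each). All of these had groups that did not overlap. The number of higher genes was 18 with the length trend removed and 18 without GA replicate 1. In the latter 2 passed (limma), where 54 of all 10912 genes were higher and passed. After rescaling to 1000000 the number was 17, where 33.4% of all genes were higher. After rescaling the median was 0.059 and 1 gene had no overlap, against 4.44% of all genes. There 1 gene had an unadjusted p under 0.05 (limma), against 2.70% of all genes higher, so most of the separation was lost on that scale. With the length trend removed 13 genes had GA above Ctrl without overlap, against 904 of all 10912 genes. By the median of ratios there were 13, against 1126 of all 10912. Without GA replicate 1 there were 16, against 26.7% of all genes. Of 14 neutrophil markers 13 were in the table, none at 0 in all libraries, and they summed to 2126 to 2234 FPKM in GA and 1725 to 1946 FPKM in Ctrl, and their part in these values was not tested.

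Genes of S phase to mitosis were counted in the same way. Of 16 listed genes 14 were higher and 2 lower in GA, with a median of 0.065 and 0 past the threshold, and 9 higher and 7 lower after rescaling to 1000000, where 33.4% of all genes were higher. The proliferation marker *Mki67* averaged 53.97 ± 4.8 FPKM in GA and 56.1 ± 1.2 FPKM in Ctrl, *Ccna2* (cyclin A) 51.5 ± 3.3 FPKM in GA and 49.6 ± 0.679 FPKM in Ctrl and *Ccnb1* (cyclin B) 50.1 ± 4.23 FPKM in GA and 46.2 ± 1.01 FPKM in Ctrl (SD, n = 3 each), and these overlapped. *Cenpa*, a centromere histone, averaged 72.5 ± 2.51 FPKM in GA and 63.99 ± 2.42 FPKM in Ctrl, and *Ube2c*, a partner of the mitotic ubiquitin ligase, 180.1 ± 13.9 FPKM in GA and 156 ± 2.67 FPKM in Ctrl (SD, n = 3 each), both with GA above Ctrl throughout.

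Upstream of *Cdkn1a*, *Trp53* averaged 122 ± 5.11 FPKM in GA and 116 ± 2.86 FPKM in Ctrl (SD, n = 3 each) and overlapped. *Mdm2*, a target and inhibitor of p53, was at 69.1, 63.2 and 59.7 FPKM in GA and at 62.96, 68.5 and 67.8 FPKM in Ctrl, highest in GA replicate 1 and lowest in GA replicate 3 like *Cdkn1a*. *Bax*, which promotes apoptosis, averaged 238 ± 21.2 FPKM in GA and 211 ± 8.3 FPKM in Ctrl, with GA above Ctrl throughout, and *Gadd45a*, a stress sensor, 26.2 ± 1.89 FPKM in GA and 29.8 ± 0.657 FPKM in Ctrl (SD, n = 3 each), with GA below. Of 20 genes, p53 and its direct targets, 10 were higher and 10 lower in GA, with a median of 0.00084 and 0 past the threshold. After rescaling to 1000000, 6 were higher and 14 lower, close to the 33.4% of all genes higher there. The deposited values did not overlap for 2 higher and 2 lower genes of the 20, close to the 11.6% and 8.29% of all genes.

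Genes that govern the stability of the proteins were compared as well, since p27 and cyclin D1 are known to be regulated by degradation. *Skp2*, which marks p27 for destruction, was at 6.5, 6.72 and 6.67 FPKM in GA and at 5.59, 5.7 and 6.22 FPKM in Ctrl (log2 fold change 0.16, adjusted p = 0.331, limma). Its cofactor *Cks1b* was at 97.4, 96.6 and 99.5 FPKM in GA and at 89.9, 80.8 and 83.2 FPKM in Ctrl (0.21, adjusted p = 0.19). Both were higher in every GA library on the deposited scale, and after rescaling to 1000000 their groups overlapped. *Gsk3b*, a kinase that marks cyclin D1 for destruction, was at 13.7, 14.2 and 14.3 FPKM in GA and at 16.3, 16.4 and 16.03 FPKM in Ctrl (-0.19, adjusted p = 0.217, limma). *Fbxo31*, a ligase subunit for cyclin D1, averaged 7.63 ± 0.591 FPKM in GA and 8.5 ± 0.269 FPKM in Ctrl (SD, n = 3 each). These were lower in every GA library. Of the 15 listed genes 13 were tested, with 7 higher and 6 lower in GA, a median of 0.029 and 0 past the threshold. After rescaling to 1000000, where 33.4% of all genes were higher, 6 were higher and 7 lower. On the deposited scale the groups did not overlap for 3 higher and 2 lower genes of the 13, against 11.6% and 8.29% of all genes. Protein was not measured here.

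**Figure D4:**
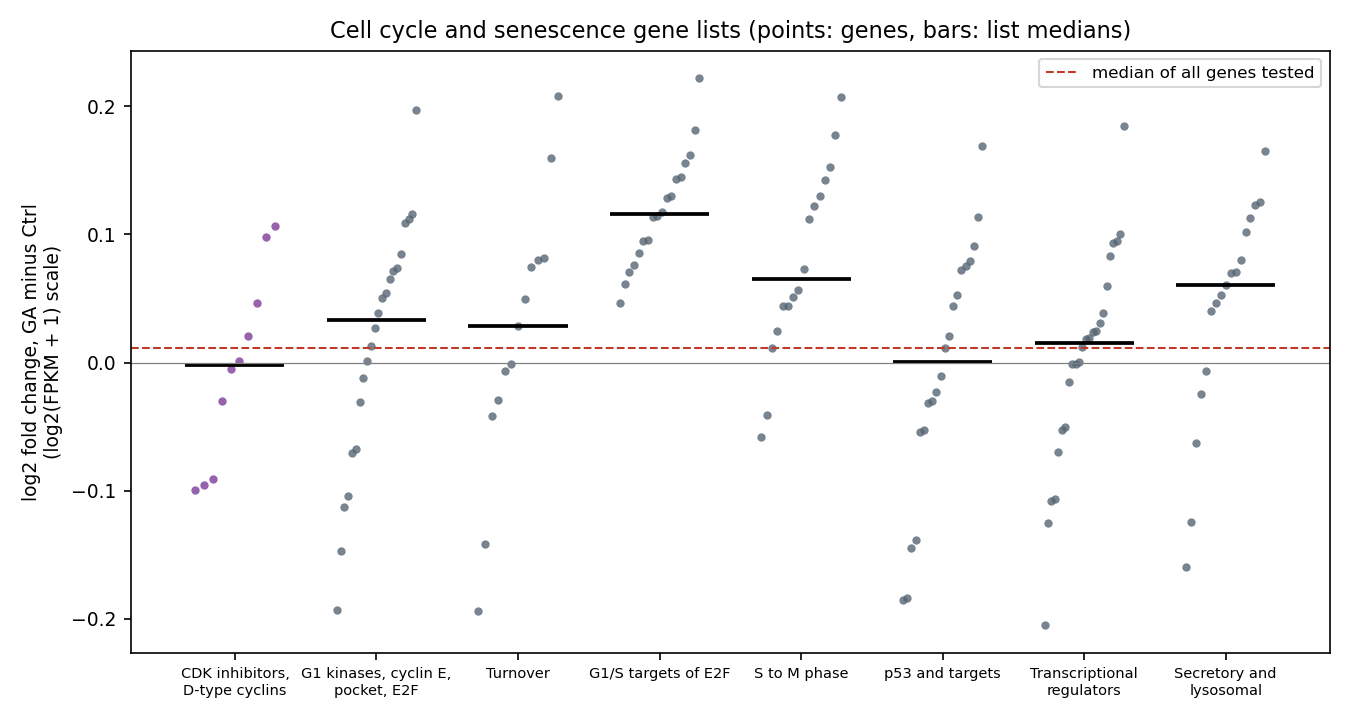
Log2 fold change of every tested gene of 8 lists, GA minus Ctrl, on the log2(FPKM + 1) scale; points are genes, black bars list medians and the dashed line the median of all genes tested. The CDK inhibitors and D-type cyclins lay between -0.099 and 0.11 with a median of -0.0015, and the E2F targets of G1/S had a median of 0.12.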

How the data were processed

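Total RNA from 3 GA and 3 Ctrl libraries, assigned by sample title, was sequenced on a BGISEQ-500. The authors cleaned the reads; the submitters' processing notes name HISAT2 2.0.4, Bowtie2 2.2.5 and mm10, and the methods add RSEM. The deposited values are FPKM, computed by the authors to 2 decimals. Annotation and strand setting are not given in the sources used here. Low values did not resolve into whole reads (46.9% to 50.04% lay within 0.15 of one), so no count test was run. FPKM divides by transcript length, and a few abundant transcripts can shift all others.

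Differences were tested with limma 3.58.1 (R 4.3.3; two-sided, mean-variance trend) on log2(FPKM + 1) for the 10912 genes averaging 1 FPKM or more, with Benjamini-Hochberg adjustment over all of them at 0.05, after checks on simulated data, and single genes also by exact permutation of the 6 libraries. The sources do not call the libraries separate animals, and p-values cover only the spread among them. Alternatives were pseudocounts (0.1, 0.5), no filter, a minimum of 5 FPKM, rescaling to 1000000 or by the median of ratios, no trend, a replicate block, each library left out, and removal of the length trend (robust loess, span 0.5; GENCODE lengths for 98.2% of tested genes). The genes and lists were chosen with earlier results of these data known. Besides the 10 genes, fixed partners were named, and the 2 further genes of smallest p in each list. The number of value columns without a sample was 0.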

Additional observations from a re-analysis of the deposited data

How the results depend on the processing

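None of the 10 genes passed at an adjusted p under 0.05 (limma) under any of the 16 alternatives (15 for *Cdkn2b*, which the minimum of 5 FPKM left out), and *Ccnd1*, *Cdkn1b* and *Ccnd2* kept their sign. Leaving out 1 library turned the sign of 6 genes, with log2 fold changes of -0.12 to 0.070 for *Cdkn1a*, -0.011 to 0.27 for *Cdkn1c*, -0.15 to 0.12 for *Cdkn2a*, -0.29 to 0.067 for *Cdkn2b*, -0.049 to 0.15 for *Cdkn2c* and -0.10 to 0.030 for *Ccnd3*. Rescaling to 1000000, which moved the median of all genes to -0.043, turned *Cdkn2a* (-0.055), *Cdkn2c* (-0.0051) and *Cdkn2d* (-0.038). *Cdkn2a* also turned with a pseudocount of 0.1 (-4.585e-05) and the median of ratios (-0.0028). Removing the length trend turned *Cdkn2a* (-0.10) and *Cdkn2d* (-0.036), and with GA replicate 1 also left out they were -0.22 and -0.041. The cause was not tested.

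Over all genes 0 passed, against 3 after rescaling to 1000000, 75 with the length trend removed and GA replicate 1 left out, and 0 to 114 with 1 library left out, the most without GA replicate 1. An unadjusted p under 0.05 was found for 1474 genes, and for 897 to 2300 with 1 library left out. Of these 65.7% were higher in GA, against 25.5% after rescaling, 54.9% by the median of ratios and 50.9% with the length trend removed. The groups did not overlap for 2168 genes, for 3770 with the length trend removed and GA replicate 1 left out, and for 2919 to 4246 with 1 library left out, where fewer samples separate more easily. The depth is unknown and groups of 3 limit every interval.

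No effect shared by same-numbered libraries was seen, since their deviations correlated at -0.169, -0.130 and 0.004 across genes. Differently numbered libraries correlated at -0.131 to 0.191. These correlations cannot settle whether the samples were paired by design. With the replicate block 1177 genes had an unadjusted p under 0.05 and 0 passed after adjustment, and no call among the 10 genes differed.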

Other observations

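Of 24 known transcriptional regulators of these genes 14 were higher and 10 lower in GA (6 higher and 18 lower after rescaling to 1000000, where 33.4% of all genes were higher), the median being 0.015 (log2), with 0 past the limma threshold. *Bmi1*, the Polycomb repressor of the *Cdkn2a* locus, averaged 21.4 ± 0.77 FPKM in GA and 22.2 ± 0.475 FPKM in Ctrl, and *Myc* 48.9 ± 4.91 FPKM in GA and 46.8 ± 1.88 FPKM in Ctrl (SD, n = 3 each), and both overlapped. *Foxo3*, which supports quiescence of mouse blood stem cells and can induce *Cdkn1b*, was at 26.7, 31.4 and 29.5 FPKM in GA and at 33.6, 33.4 and 34.2 FPKM in Ctrl. All GA libraries lay below all Ctrl libraries (log2 fold change -0.21, adjusted p = 0.239, limma). This held for 2 of the 24 genes, against 8.29% of all genes, and the reverse for 0, against 11.6%. *Id1*, an inhibitor of helix-loop-helix factors, averaged 22.5 ± 1.17 FPKM in GA and 19.7 ± 1.84 FPKM in Ctrl (SD, n = 3 each) and overlapped.

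Of 23 senescence-associated secretory and lysosomal genes 17 were tested, with 12 higher and 5 lower in GA (10 higher and 7 lower after rescaling to 1000000, 9 higher and 8 lower with the length trend removed), a median of 0.061 and 0 past the threshold. *Tgfb1*, whose product is known to induce *Cdkn2b* in epithelial cells, was at 983, 932 and 959 FPKM in GA and at 1043, 1066 and 1023 FPKM in Ctrl. It was lower in every GA library (adjusted p = 0.34, limma). *Tnf*, an inflammatory cytokine, averaged 15.5 ± 0.132 FPKM in GA and 14.3 ± 0.266 FPKM in Ctrl (SD, n = 3 each), with GA above Ctrl throughout on the deposited scale. After rescaling to 1000000 the groups of *Tnf* overlapped. *Tnf* and *Tgfb1* were named for their small p (limma). On the deposited scale they were the 1 higher and 1 lower gene of the 17 without overlap, against 11.6% and 8.29% of all genes.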
